A study of Mus musculus with 10 samples.

Results

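The beta, gamma and delta subunits of the GABA-A receptor were followed in the ribosome-bound RNA of Drd2-expressing, mossy cell-enriched populations of the mouse hippocampus. The members were Gabrb1 and Gabrb2 (beta1 and beta2), Gabrg1 and Gabrg3 (gamma1 and gamma3) and Gabrd (delta), picked by gene symbol. They were 5 of 54838 gene identifiers with counts, and all 5 passed the expression filter, a CPM (read count scaled to library size) above 1 in at least 2 libraries. The study asked how mossy cells, the glutamatergic neurons of the dentate hilus, differ between the dorsal and the ventral hippocampus. Translating ribosome affinity purification (TRAP), which pulls down EGFP-tagged ribosomes with the RNA they carry, was used on 5 dorsal and 5 ventral samples. Both groups had the same genotype, Drd2-Cre;Eef1a1LSL.eGFPL10a/+, on the C57BL/6 strain, and came from male mice about 10 weeks old with no treatment named. Each library was made from the hippocampal tissue of a pool of 5 mice. Both parts were cut from the hippocampi of the same mice, so the groups share animals, but which dorsal and ventral pools correspond is not stated. The groups differed in the part of the hippocampus taken, a smaller dorsal or a larger ventral segment. The methods also describe cutting the ventral subiculum away from the ventral pole. As a limit of this model, Drd2-Cre also marks some hippocampal interneurons, so the precipitate is enriched for mossy cells and not pure.

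GABA-A receptors are chloride channels of 5 subunits, usually alpha and beta subunits together with a gamma or a delta subunit. The beta subunit forms the GABA-binding site together with alpha and is needed for assembly and surface delivery. Gamma subunits are associated with receptors gathered at synapses, whereas delta-containing receptors lie mostly outside synapses, respond to low ambient GABA with a tonic current and are sensitive to neurosteroids. In the dentate gyrus delta is best known from granule cells, and gamma1 is known from some neurons and from glia.

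Genes of the family sit in clusters, and promoters are shown because Gabrg1 and Gabrg3 were both higher in dorsal libraries whereas Gabrb2 was not called. The 250 bases before the RefSeq start (GRCm38.p6) are printed 5′ to 3′ on the gene's strand, and capitals mark motif matches, searched on both strands, none of which overlapped another. The motifs were the core promoter element TATAAA, called the TATA box, the Sp1-binding element GGGCGG, called the GC box, the upstream element CCAAT, the cAMP response element TGACGTCA, and the canonical E-box CACGTG. The windows are chr5:70842618-70842867 on the minus strand for Gabrg1, chr7:57387216-57387465 on the minus strand for Gabrg3, and chr11:42420190-42420439 on the plus strand for the most upstream listed start of Gabrb2.
Gabrg1: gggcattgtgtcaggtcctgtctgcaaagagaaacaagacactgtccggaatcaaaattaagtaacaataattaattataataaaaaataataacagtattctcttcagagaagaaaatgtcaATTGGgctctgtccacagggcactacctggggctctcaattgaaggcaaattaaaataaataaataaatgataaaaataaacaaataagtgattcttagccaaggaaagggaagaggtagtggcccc
Gabrg3: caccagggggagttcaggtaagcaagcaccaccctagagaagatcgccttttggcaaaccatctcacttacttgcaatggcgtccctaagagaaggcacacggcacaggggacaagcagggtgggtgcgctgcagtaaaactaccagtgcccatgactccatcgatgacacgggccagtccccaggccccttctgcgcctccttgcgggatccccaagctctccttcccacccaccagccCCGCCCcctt
Gabrb2: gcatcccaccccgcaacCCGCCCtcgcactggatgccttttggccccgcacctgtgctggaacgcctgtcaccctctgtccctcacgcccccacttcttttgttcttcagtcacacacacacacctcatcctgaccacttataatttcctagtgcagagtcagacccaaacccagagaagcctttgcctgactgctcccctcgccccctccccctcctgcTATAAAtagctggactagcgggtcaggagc
The printed windows differ in composition. The Gabrg1 window had a GC content of 35.6% with 1 CpG and a CCAAT match 127 bases before the start. The Gabrg3 window had 60.4% GC, 9 CpGs and a GGGCGG match 10 bases before the start, and 123 of its bases lie in an exon of Gm9962, an antisense gene. The Gabrb2 window had 58.8% GC, 8 CpGs, a TATAAA match 30 bases before the start and a GGGCGG match at 233. It lies inside the annotated span of the gene, which starts at 42419757. Windows of further listed Gabrb2 starts had 54.0% GC with a CCAAT match and 36.8% GC with none of the motifs. Over 32851 RefSeq promoter windows of the same length the median GC content was 52.4% with 6 CpGs, and the TATA box was in 12.4%, the GC box in 32.7%, the CCAAT element in 33.8%, the cAMP response element in 1.55% and the E-box in 6.02%. The first window of Gabrb1 is not printed, since 197 of its bases are also exon of Gabra4 on the other strand, and it held none of these motifs at 64.4% GC with 18 CpGs. Of the members 4 of 5 were in the table, and Gabrd was not.

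Counts on genes ranged from 11138676 to 16779821 per dorsal library and from 11618625 to 20594364 per ventral library, so that 3 counts correspond to 0.146 to 0.269 CPM. Values below are TMM-scaled CPM. The share of read pairs outside annotated genes was 21.8% to 33.9% in dorsal and 11.6% to 19.3% in ventral libraries, with no overlap between the groups. The ventral marker of mossy cells Calb2 (calretinin) was at 65.2 ± 9.32 CPM (SD, n = 5) in dorsal and 616 ± 94.6 CPM in ventral libraries. Of the 10 listed mossy cell markers 9 were tested, and 2 of these had a dorsal call (Cyp26b1 and Gria3), 3 a ventral call (Calb2, Satb1 and Ap2s1) and 4 no call. The 9 tested had a median log2 fold change of -0.18. The list, with Calb2 included, summed to 729 to 859 CPM in dorsal and 1299 to 1563 CPM in ventral libraries. Drd2, whose promoter drives Cre, was at 28.1 ± 3.96 and 20.7 ± 4.36 CPM with no call. Markers of other cells were present too: the 14 interneuron markers summed to 3745 to 5054 CPM in dorsal and 4587 to 5936 CPM in ventral libraries, led by Gad2, and the 7 oligodendrocyte markers to 2214 to 2588 and 797 to 1475 CPM. The 10 granule cell markers summed to 1012 to 1201 and 1058 to 1314 CPM, and the 10 astrocyte markers to 230 to 304 and 104 to 248 CPM. The 5 ventral subiculum markers summed to 14.2 to 29.6 CPM in dorsal and 11.3 to 15.6 CPM in ventral libraries. No marker of these lists was at 0 in every library. In such bulk samples, fewer cells of a type and less RNA per cell cannot be told apart.

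Gabrb1, Gabrg1 and Gabrg3 were higher in dorsal libraries, Gabrd was higher in ventral libraries by a narrow margin, and Gabrb2 did not pass the test. To be called, a gene had to have an adjusted p under 0.05 in the quasi-likelihood test of edgeR, and its mean CPM, after adding 1, had to differ between the groups by more than 0.58 on the log2 scale. By that rule 3 of the 5 members were called dorsal-enriched, where 15.7% of all 16806 tested genes were, and 1 was called ventral-enriched, where 9.85% were. Of the 2226 protein-coding genes that span more than 100 kb, the class of Gabrb1, Gabrb2 and Gabrg3, 18.3% had a dorsal and 6.38% a ventral call. Of the 11323 shorter ones, the class of Gabrg1 and Gabrd, 10% had a dorsal and 11.1% a ventral call. Below 45% GC, the class of all members but Gabrd, the shares were 12.8% and 6.98% of 3064 protein-coding genes. Without overlap between the groups' libraries, 3 members were higher in dorsal, against 9.81% of tested genes, and 0 were higher in ventral, against 8.36%.

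**Figure D1:**
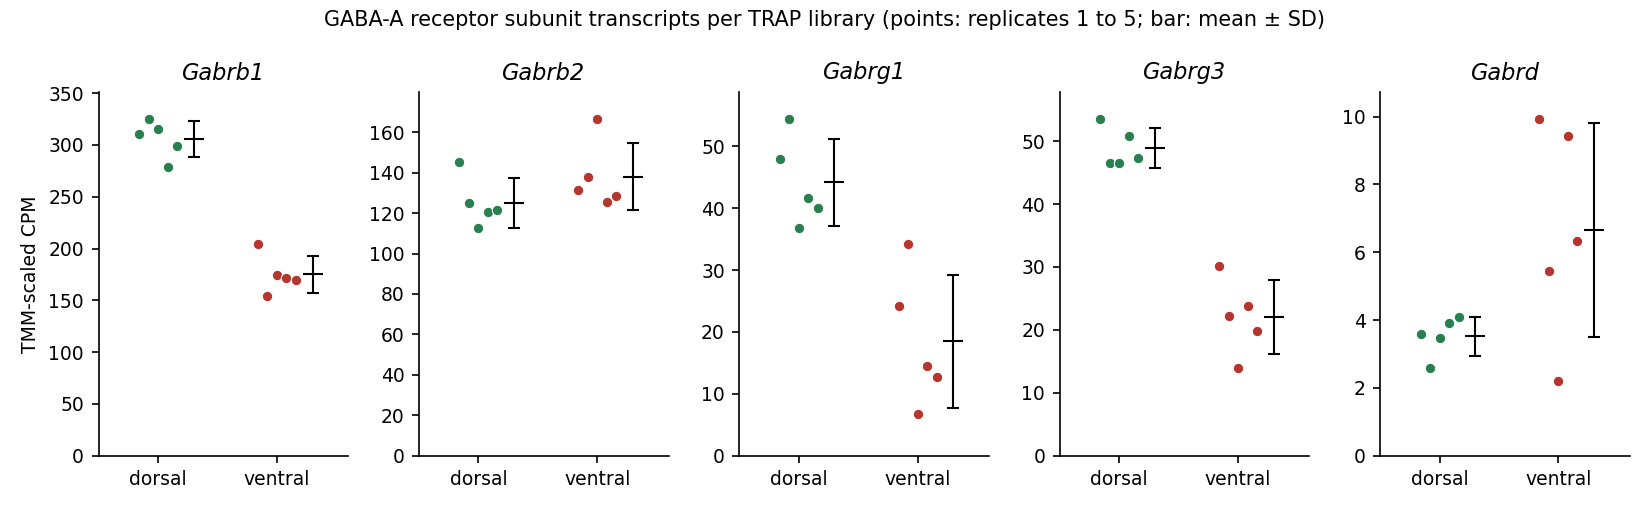
TMM-scaled CPM (vertical axes, each from 0) of the 5 members in the dorsal (green) and ventral (red) libraries, with the mean and SD beside the points. All dorsal points lie above all ventral points for Gabrb1, Gabrg1 and Gabrg3, whereas the groups overlap for Gabrb2 and Gabrd.

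Among the beta subunits, Gabrb1 was higher in every dorsal library than in any ventral one. The gene (ENSMUSG00000029212) lies on chromosome 5 at 71658113 to 72149037 (GRCm38, plus strand). It was at 310.5, 325, 315, 279 and 299 CPM in dorsal replicates 1 to 5 and at 204, 155, 175, 172 and 170 CPM in ventral replicates 1 to 5. The lowest dorsal library stood well above the highest ventral one. The mean of 306 ± 17.6 CPM (SD, n = 5) in dorsal was 1.74-fold that of 175 ± 18.1 CPM in ventral libraries, a log2 fold change of 0.80 (SE 0.096, 95% interval 0.60 to 1.01, adjusted p = 8.23e-05 in edgeR). Removing each library's trend of level with GC content and exonic length, fitted over all tested genes, gave 0.50 with an adjusted p of 0.00143, under the fold threshold, whereas a trend fitted on protein-coding genes alone gave 0.59, a call.

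Gabrb2, which encodes the beta subunit common in cortical and hippocampal synaptic receptors (ENSMUSG00000007653), lies on chromosome 11 at 42419757 to 42629028 on the plus strand. It was at 145, 125, 113, 121 and 122 CPM in dorsal replicates 1 to 5 and at 131, 138, 167, 126 and 129 CPM in ventral replicates 1 to 5. The groups overlapped, with dorsal replicate 1 above 4 of the 5 ventral libraries and ventral replicate 3 above all others. The means were 125 ± 12.2 and 138 ± 16.6 CPM (SD, n = 5), a log2 fold change of -0.14 (SE 0.11, adjusted p = 0.337 in edgeR). The 95% interval from -0.38 to 0.093 leaves out a dorsal excess of the size seen for Gabrb1.

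The balance of the beta subunits differed between the regions. Within each library, CPM per kb of exonic length was divided between the genes, a ratio that does not depend on library scaling. Gabrb1 over Gabrb2 was 0.981, 1.20, 1.28, 1.06 and 1.13 in dorsal replicates 1 to 5 and 0.714, 0.515, 0.482, 0.628 and 0.606 in ventral replicates 1 to 5. Dorsal libraries thus held the genes at about equal length-scaled levels, and every ventral library held more Gabrb2 per kb. Exonic length covered all annotated exons of a gene, 13.8 kb for Gabrb1 and 6.36 kb for Gabrb2. In CPM not divided by length, Gabrb1 was above Gabrb2 in every library. The order of the genes thus depends on these lengths, whereas the difference in their ratio between the regions does not. The mean log2 ratio was 0.17 ± 0.15 (SD, n = 5) for dorsal and -0.78 ± 0.23 for ventral libraries, a difference of 0.95 or 1.93-fold (p = 0.00794 by a two-sided exact permutation test, with no smaller value possible for 5 against 5, and unchanged by adjustment over the 2 ratios tested).

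Both gamma members were higher in dorsal libraries. Gabrg1 (ENSMUSG00000001260) lies on chromosome 5 at 70751047 to 70842617 on the minus strand. It was at 48.0, 54.4, 36.7, 41.7 and 40.1 CPM in dorsal replicates 1 to 5 and at 24.2, 34.2, 6.75, 14.4 and 12.7 CPM in ventral replicates 1 to 5. The lowest dorsal and the highest ventral library were close, and ventral replicate 3 was lowest, with 80 reads. The means were 44.2 ± 7.04 and 18.5 ± 10.8 CPM (SD, n = 5), a 2.43-fold difference with a log2 fold change of 1.28 (SE 0.28, 95% interval 0.68 to 1.89, adjusted p = 0.00424 in edgeR).

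The Gabrg1 call was lost when a trend of level with GC content over all tested genes was removed, its exons having a GC content of 35.1%. With the GC and length trends removed together, its log2 fold change was -0.02 (adjusted p = 0.965 in edgeR). With the GC trend alone removed it was -0.00049, and with the length trend alone removed 1.28 and called dorsal, alternatives chosen after seeing the data. With both trends fitted on protein-coding genes alone, also chosen after seeing the data, it was 0.89 and called dorsal (adjusted p = 0.0194 in edgeR). Among tested genes under 38% GC, the median log2 fold change was 0.19 over 141 protein-coding genes and 2.11 over 408 genes of other biotypes. With the outside-gene share of read pairs in the model, Gabrg1 was at 1.85 and not called (SE 0.55, adjusted p = 0.0565 in edgeR). That share did not overlap between the groups, so it cannot be told apart from region. Among astrocyte markers 5 of 10 were called dorsal-enriched and 1 ventral-enriched, at a median log2 fold change of 0.61. Within each group the libraries ran the other way. The astrocyte sum was highest where Gabrg1 was lowest, at 304 CPM in dorsal and 248 CPM in ventral replicate 3, and lowest where Gabrg1 was highest, at 230 CPM in dorsal and 104 CPM in ventral replicate 2. Aqp4, the water channel of astrocytes, was at 41.0 ± 3.46 and 23.4 ± 6.45 CPM, and Gjb6, a gap junction protein, at 20.5 ± 3.68 and 7.39 ± 1.07 CPM (SD, n = 5). Aldh1l1, the astrocyte marker called ventral-enriched, was at 1.17 ± 0.901 and 4.16 ± 1.68 CPM. Of the oligodendrocyte markers 3 of 7 were called dorsal-enriched, at a median of 0.58. The part of these markers in the Gabrg1 difference was not tested.

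Gabrg3 kept its call under every processing tried. The gene (ENSMUSG00000055026) lies on chromosome 7 at 56716465 to 57387188 on the minus strand. It was at 53.5, 46.5, 46.5, 50.8 and 47.3 CPM in dorsal replicates 1 to 5 and at 30.1, 22.3, 14.0, 23.7 and 19.9 CPM in ventral replicates 1 to 5. The dorsal libraries lay in a narrow band well above every ventral library, and ventral replicate 3 was again lowest. The means were 48.9 ± 3.14 and 22.0 ± 5.86 CPM (SD, n = 5), a 2.19-fold difference with a log2 fold change of 1.13 (SE 0.16, 95% interval 0.78 to 1.48, adjusted p = 0.000315 in edgeR). It was called dorsal-enriched in all 29 alternatives run.

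Gabrd, the delta subunit, had the fewest reads and went the other way. The gene (ENSMUSG00000029054) lies on chromosome 4 at 155384980 to 155398112 on the minus strand and had 26 to 179 reads per library. It was at 3.58, 2.60, 3.48, 3.90 and 4.09 CPM in dorsal replicates 1 to 5 and at 9.93, 5.46, 2.20, 9.43 and 6.33 CPM in ventral replicates 1 to 5. In ventral replicates 1, 2, 4 and 5 it was above every dorsal library, whereas ventral replicate 3 was below all of them. The means were 3.53 ± 0.575 and 6.67 ± 3.16 CPM (SD, n = 5), 1.98-fold higher in ventral libraries with a log2 fold change of -0.99 (SE 0.35, 95% interval -1.73 to -0.24, adjusted p = 0.042 in edgeR). The call was kept in 10 of 29 alternatives and lost in 19, mostly with a fold change of like size, such as -0.89 in DESeq2 (adjusted p = 0.0626). It was lost without any 1 dorsal library (-0.88 to -1.03) and without ventral replicate 1, 4 or 5 (-0.80, -0.84 and -1.03). A model with the outside-gene share of read pairs, chosen after seeing the data, gave -0.02 (SE 0.73). That share did not overlap between the groups, so it cannot be told apart from region.

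Granule cell and interneuron markers are given beside Gabrd, since these cells can also hold delta. Of all tested genes, 15.7% had a dorsal and 9.85% a ventral call. Dorsal calls fell on 2 of 10 granule cell markers and a ventral call on 1, at a median log2 fold change of -0.05. Prox1, the transcription factor of granule cells, was at 289 ± 24.7 and 175 ± 47.5 CPM, and Calb1 (calbindin) at 124 ± 22.8 and 229 ± 34.8 CPM (SD, n = 5). Dorsal calls fell on 0 of 14 interneuron markers and ventral calls on 5 (Sst, Pvalb, Htr3a, Dlx6os1 and Lhx6), at a median of -0.49. The part of these cells in the Gabrd values was not tested.

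**Figure D2:**
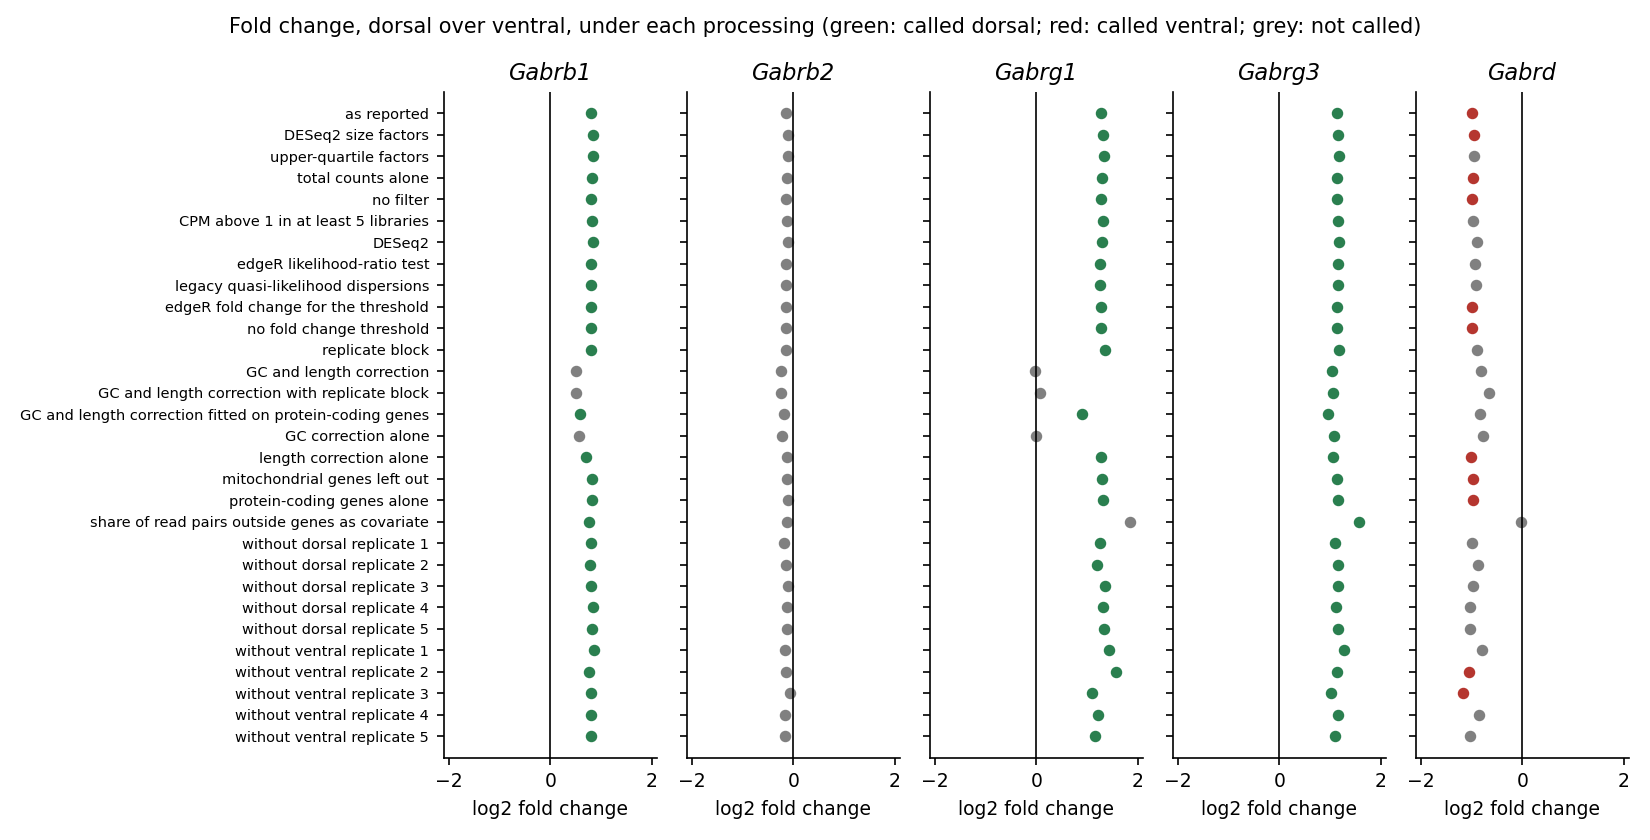
Log2 fold change, dorsal over ventral, of each member (panels) under each processing (vertical axis), coloured by whether the gene was called. Gabrg3 stays called dorsal and Gabrb2 uncalled throughout, Gabrg1 falls to -0.02 under the GC and length trend of all genes and to 0.89 under that of protein-coding genes, and Gabrd moves in and out of its call.

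The gamma to delta balance followed from these levels. Gabrg1 plus Gabrg3, per kb, over Gabrd was 8.51, 11.96, 7.08, 7.04 and 6.37 in dorsal replicates 1 to 5 and 1.62, 3.28, 2.66, 1.17 and 1.49 in ventral replicates 1 to 5. Per kb, the sum of these gamma genes exceeded Gabrd in every library, and the lowest dorsal ratio was above the highest ventral one. This held in ventral replicate 3 too, where all these subunits were low. Taken singly, each gamma gene was below Gabrd per kb in ventral replicates 1, 4 and 5. In ventral replicate 2 Gabrg3 was also just below Gabrd, at 1.87 against 1.90 CPM per kb. In CPM not divided by length, each gamma gene was above Gabrd in every library. The mean log2 ratio was 3.0 ± 0.36 (SD, n = 5) for dorsal and 0.92 ± 0.62 for ventral libraries, a difference of 2.07 or 4.21-fold (p = 0.00794 by a two-sided exact permutation test, again with no smaller value possible, and unchanged by adjustment over the 2 ratios). With Gabrg3 alone over Gabrd the difference was 1.95, and with Gabrg1 alone 2.21. With GC and length trends of all genes removed, chosen after seeing the data, it was 1.12 for both (exact permutation p = 0.0159), 1.65 for Gabrg3 alone (exact permutation p = 0.00794) and 0.72 for Gabrg1 alone (exact permutation p = 0.0873). Only these gamma subunits entered, so the ratio is not that of all gamma to delta.

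**Figure D3:**
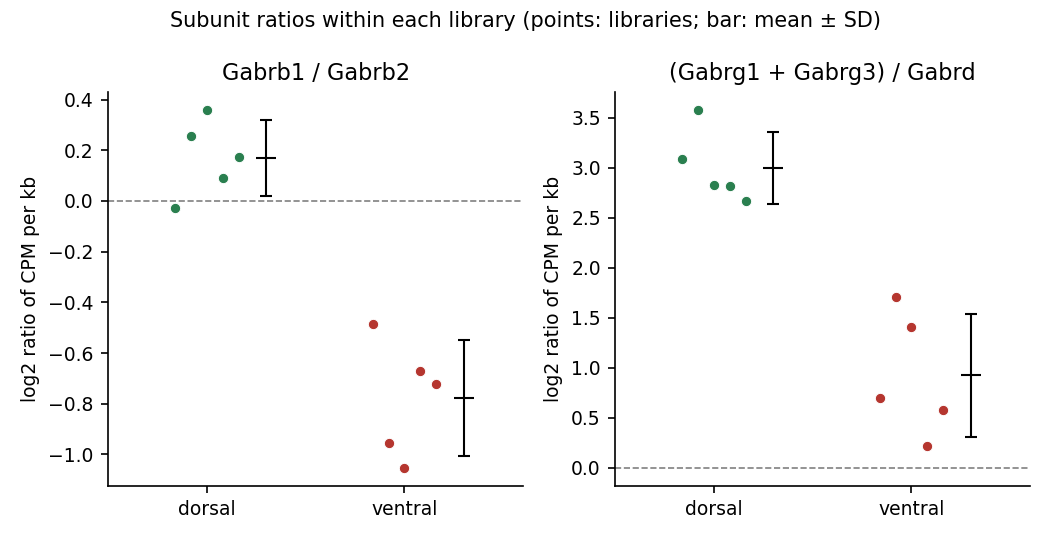
Log2 ratio of CPM per kb within each library for Gabrb1 over Gabrb2 (left) and for Gabrg1 plus Gabrg3 over Gabrd (right), with the mean and SD beside the points and equal levels at the dashed line. Dorsal libraries lie above ventral ones in both panels, with means of 0.17 and -0.78 on the left and of 3.0 and 0.92 on the right.

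Per kb of exonic length, the order of the levels differed between the regions. This order depends on the annotated lengths. In CPM not divided by length, the order of the means was Gabrb1, Gabrb2, Gabrg3, Gabrg1 and Gabrd in both regions. The order per kb follows. In dorsal libraries the order per kb was Gabrb1 (22.1 ± 1.27 CPM per kb), Gabrb2 (19.7 ± 1.92), Gabrg1 (5.61 ± 0.895), Gabrg3 (4.10 ± 0.263) and Gabrd (1.23 ± 0.200, SD, n = 5 for each). The ranges of Gabrb1 and Gabrb2 overlapped, and each later neighbour lay below the one before it in all libraries. In ventral libraries it was Gabrb2 (21.7 ± 2.61 CPM per kb), Gabrb1 (12.6 ± 1.31), Gabrg1 (2.35 ± 1.38), Gabrd (2.32 ± 1.10) and Gabrg3 (1.84 ± 0.491). There the beta members were apart from each other and from the rest, whereas the ranges of Gabrg1, Gabrd and Gabrg3 overlapped.

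**Figure D4:**
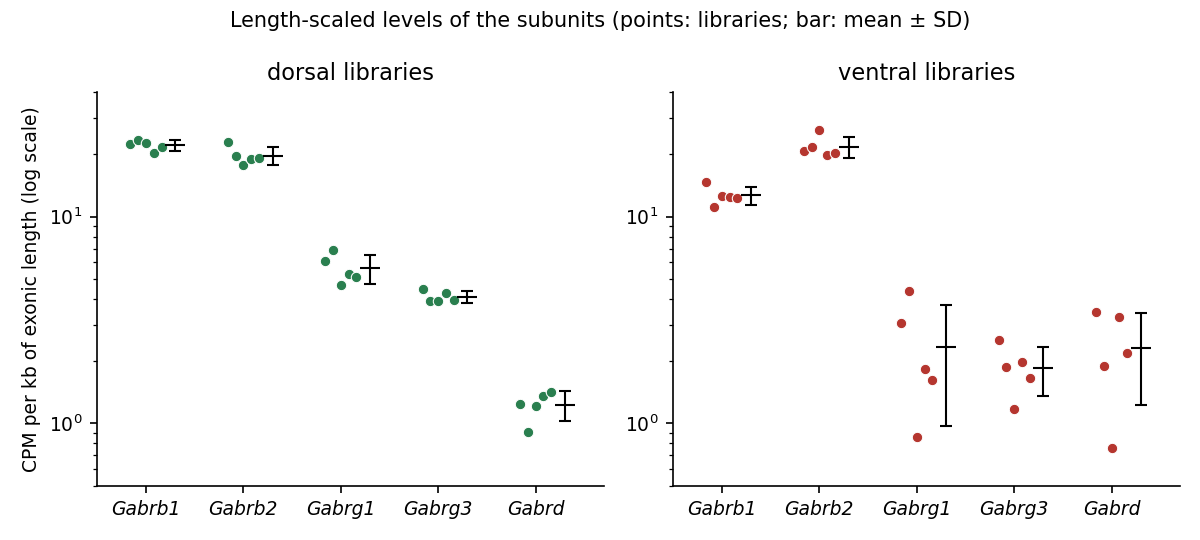
CPM per kb of exonic length (log axis) of the 5 members in the dorsal (left) and ventral (right) libraries, with the mean and SD. Gabrd is lowest in dorsal libraries at 1.23 CPM per kb, and in ventral libraries it lies among Gabrg1 and Gabrg3.

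On chromosomes 5 and 7, the alpha subunit genes given here that share a cluster with a member differed in the same direction as it where they were called. On chromosome 5, Gabra2 lies between Gabrg1 and Gabrb1 and was dorsal-enriched, at 500 ± 34.4 and 319 ± 43.7 CPM (SD, n = 5) with a log2 fold change of 0.65 (SE 0.10, adjusted p = 0.000524 in edgeR). Gabra4 of the same cluster, the alpha partner of delta in granule cells, was at 112 ± 20.3 and 79.5 ± 8.25 CPM, with a log2 fold change of 0.49 (adjusted p = 0.0124 in edgeR), under the fold threshold. Gabrb1 and Gabra4 lie head to head on opposite strands and share 0.332% of the exonic bases of Gabrb1. On chromosome 7, Gabra5, whose receptors are mainly extrasynaptic, lies next to Gabrg3 and was dorsal-enriched at 139 ± 8.45 and 82.3 ± 7.22 CPM, with a log2 fold change of 0.75 (SE 0.10, adjusted p = 0.000184 in edgeR).

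**Figure D5:**
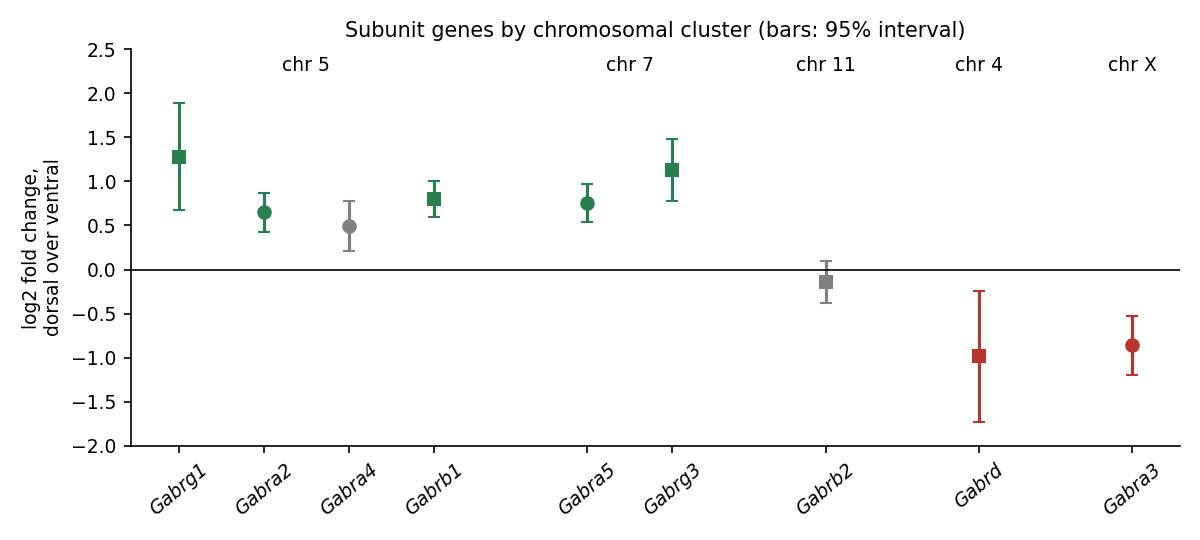
Log2 fold change, dorsal over ventral, with its 95% interval for the members (squares) and other alpha subunits (circles), grouped by chromosome. Green marks dorsal calls, red ventral calls and grey genes not called, with Gabra2 at 0.65 and Gabra5 at 0.75 beside the gamma members and Gabra3 at -0.86.

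Of the 11 other subunit genes considered, 6 were tested, 2 were called dorsal-enriched (Gabra2 and Gabra5) and 1 ventral-enriched. Among all tested genes 15.7% had a dorsal and 9.85% a ventral call. The ventral-enriched subunit was Gabra3 on the X chromosome, at 47.4 ± 10.9 and 86.0 ± 11.9 CPM (SD, n = 5) with a log2 fold change of -0.86 (adjusted p = 0.00133 in edgeR). The median of the 6 was 0.49, beside -0.0044 over all tested genes. Gabra6, Gabre, Gabrp, Gabrr1 and Gabrr3 did not pass the expression filter.

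Of 18 genes that gather or move GABA-A receptors, 1 was called dorsal-enriched and 2 ventral-enriched, beside 25.5% of all tested genes called in either direction. Their median log2 fold change was -0.04. By an adjusted p under 0.05 alone 9 of the 18 passed, beside 3191 dorsal-higher and 2454 ventral-higher genes of the 16806 tested. Shisa7, a GABA-A receptor auxiliary protein, was dorsal-enriched at 87.9 ± 18.8 and 47.2 ± 5.22 CPM (SD, n = 5; log2 fold change 0.90, adjusted p = 0.000857 in edgeR). Nsf, a vesicle fusion ATPase, was ventral-enriched at 617 ± 41.8 and 947 ± 94.2 CPM (-0.62, adjusted p = 0.000337), as was Hap1, which takes part in receptor recycling, at 16.4 ± 0.578 and 31.7 ± 2.97 CPM (-0.96, adjusted p = 0.000228). Gphn, the gephyrin scaffold, was at 41.5 ± 3.11 and 60.3 ± 13.8 CPM, with a log2 fold change of -0.55 (adjusted p = 0.0168 in edgeR), under the fold threshold. Of 8 genes that set the chloride gradient, 1 was called, beside the same 25.5% of all tested genes. It was the chloride importer Slc12a2 (NKCC1), dorsal-enriched at 114 ± 17.6 and 75.3 ± 23.2 CPM (0.60, adjusted p = 0.0221 in edgeR). Its libraries overlapped, at 94.3 to 142 CPM in dorsal and 44.0 to 109 CPM in ventral. The chloride exporter Slc12a5 (KCC2) was not called, at 179 ± 20.3 and 162 ± 20.1 CPM (0.15, adjusted p = 0.317 in edgeR).

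The protein-coding genes whose levels followed each member most closely over the 10 libraries were sought among 10070 genes with a mean of at least 5 CPM, as a description. The measure was Pearson's r of log2(CPM + 1), and libraries of a group share their region. For Gabrb1 they were Macf1 (r = 0.99), Grin2b (0.99), an NMDA receptor subunit, and Ash1l (0.98), all called dorsal-enriched. For Gabrb2 they were Jakmip2 (0.99), Ttbk2 (0.98) and Ube2q2 (0.97), none of them called. Gabrg1 was followed by Zswim9 (0.99), Baz1b (0.99) and Atp2b4 (0.99), and Gabrg3 by 4930503L19Rik (0.98), Dgke (0.98) and Gpatch2 (0.98). Gabrd was followed by R3hcc1 (0.96), Prpf18 (0.96) and Thrap3 (0.95), none of which was called.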

How the data were processed

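RNA was obtained by TRAP, amplified with the Ovation kit and sequenced as paired ends. The authors deposited raw counts of read pairs for each Ensembl gene in 1 file per library, made by aligning reads to GRCm38 with STAR 2.5.2b and counting with HTSeq 0.7.2. The counts were neither scaled nor filtered. The annotation release and the strand setting are not given in the sources used here, so overlapping genes are uncertain. Symbols, coordinates, GC content and exonic length came from the GENCODE annotation of that build, where 54809 of 54838 identifiers were found. Some genes, among them subunits of the family, are not reported here.

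Tests were run with edgeR 4.0.16 (R 4.3.3) on the 16806 genes that exceeded 1 CPM in 2 or more libraries. TMM factors scaled the libraries, and p-values of the quasi-likelihood test were adjusted by the Benjamini-Hochberg method over all tested genes. Standard errors were derived from the F statistic. Ratios were tested by exact permutation over libraries. The edgeR test was tried on simulated counts, and the permutation test on values with a known answer. DESeq2 1.42.0 was used as an alternative. GC and length trends were fitted with mgcv 1.9.3 and removed as offsets that keep each library's scaling. Alternatives are described with their effects in the closing section.

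The named genes were the members, the 3 genes most alike to each, and list genes that share a cluster with a member, were called or were needed for a sentence on their list. The members and lists were chosen with earlier results of these data known. Dorsal and ventral pools came from the same mice, but neither the labels, which give the replicate numbers, nor the methods say that equal numbers share mice. Each library was a pool of mice, and no pair within a group agreed within sampling noise (their counts differed by 4.36 to 45.1 in chi-square per degree of freedom). Floors from counts cover counting error only. The intervals of the log2 fold changes rest on the standard errors of the quasi-likelihood test, so they also include the spread between libraries of a group.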

Additional observations from a re-analysis of the deposited data

How the results depend on the processing

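Gabrg3 was called dorsal-enriched and Gabrb2 was not called in all 29 alternatives, Gabrb1 was called in 26, Gabrg1 in 25 and Gabrd in 10. The GC and length correction over all genes left 1 member called dorsal-enriched, with or without the replicate block, and put Gabrg1 at -0.020 without the block and 0.062 with it. The GC correction alone also left 1, with Gabrg1 at -0.00049. For Gabrg1 alone over Gabrd, the ratio difference was 0.72 under the GC and length correction and 0.71 under that for GC alone. No member was ventral-enriched (0) with upper-quartile factors, CPM above 1 in at least 5 libraries, DESeq2, the likelihood-ratio test, the legacy dispersions, the replicate block, each correction that includes GC or the outside-gene share of read pairs as a covariate. Leaving out 1 library in turn gave 0 to 1 ventral-enriched members, with 1 only without ventral replicate 2 or 3. Dorsal-enriched genes numbered 1665 among protein-coding genes alone, whose number is smaller by construction. With the covariate, 834 dorsal-enriched and 339 ventral-enriched genes were left in place of 2636 and 1655, and the cause was not tested. The outside-gene share did not overlap between the groups, so this model cannot tell it apart from region. Standard errors were larger under it for every member, going from 0.096 to 0.19 for Gabrb1 and from 0.35 to 0.73 for Gabrd. The covariate, the protein-coding trend, the GC and length corrections taken singly, and all corrections of the ratios were chosen after seeing the data.

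The groups share mice, but equal replicate numbers did not deviate together (mean r = 0.016 for equal and -0.0021 for unequal numbers), so the pairing was used as an alternative only. The replicate block gave 2656 dorsal-enriched and 1674 ventral-enriched genes. With paired differences in place of groups, the ratio differences of 0.95 for Gabrb1 over Gabrb2 and 2.07 for gamma over delta were higher in dorsal in 5 of 5 pairs, with p = 0.0625 by exact sign-flip permutation, the smallest that 5 pairs allow. Gabrd, with 26 to 179 reads per library, is the member limited most by depth.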

Other observations

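Genes of neurosteroid synthesis, whose products act on delta-containing receptors, were scarce. Of 5 listed, 3 were tested and 2 were called dorsal-enriched, Star and Cyp11a1, both with overlapping libraries. Of all tested genes, 15.7% had a dorsal call. Star, which carries cholesterol into mitochondria, was at 18.8 ± 6.53 and 11.3 ± 3.07 CPM (SD, n = 5) in dorsal and ventral libraries (log2 fold change 0.72, adjusted p = 0.0486 in edgeR). Cyp11a1, the side-chain cleavage enzyme, was at 1.01 ± 0.871 and 0.237 ± 0.290 CPM, near the floor of 3 counts (adjusted p = 0.0476 in edgeR). Srd5a1, a steroid reductase, was not called, at 7.12 ± 0.969 and 7.90 ± 2.1 CPM.

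Genes next to the members did not all move with them. Cox7b2, between Gabra2 and Gabra4 on chromosome 5, was ventral-enriched at 0.532 ± 0.320 and 2.84 ± 3.29 CPM (SD, n = 5), with overlapping libraries (log2 fold change -2.61, adjusted p = 0.022 in edgeR). Gm9962, the antisense gene at the start of Gabrg3, was at 4.52 ± 0.836 and 11.4 ± 9.97 CPM and was not called (-1.25, adjusted p = 0.0706 in edgeR). Beside Gabrd on chromosome 4, the noncoding 5830444B04Rik was dorsal-enriched (2.15, adjusted p = 0.00447 in edgeR), while the protein-coding neighbours Ski, Faap20, Prkcz, Cfap74 and Gnb1 were not called.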
